A study of Mus musculus with 18 samples.

Results

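The change in chromatin contacts of the immunoglobulin heavy chain enhancer on activation of wild-type B cells was described from 6 4C-seq libraries of the 18 in the series. In 4C-seq every DNA fragment ligated to a single bait is amplified by inverse PCR and counted. The cells were CD43-negative mature B cells from mouse spleen, labelled WT for genotype, and they were fixed in 2% formaldehyde. A group of 3 libraries came from resting cells of day 0, and a group of 3 from cells kept with LPS and IL4 until day 2. The growth protocol of LPS + IL4 replicate 2 names aCD40 and IL4 in place of LPS and IL4, and the library was kept in its labelled group. All 6 titles say WTKO, but the genotype field says WT and was followed. The labels do not say that replicates are separate animals, so p-values measure only the spread between these libraries. The same 2 conditions in Med1 mutant cells entered the fits for their share of the spread, and the 6 libraries of LPS alone were not used.

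The bait lies in Eμ, the enhancer between the joining segments and the constant gene Ighm. After it, in the direction of transcription, come the constant genes Ighd, Ighg3, Ighg1, Ighg2b, Ighg2c, Ighe and Igha, and then the 3' regulatory region (3'RR), a cluster of enhancers that drives germline transcription and class switch recombination. LPS with IL4 directs B cells to switch to Ighg1 and Ighe, and switching joins the DNA ahead of Ighm to that ahead of the new constant gene. On the other side of the bait lie the VH segments and then the end of the chromosome.

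The data are reads per fragment end, an interval of 24 bases beside a DpnII site (GATC). The bait end is chr12:113426025-113426048 in mm10, and it was the end with most reads in every library. The sequences show what was amplified and what a captured end looks like. The inverse PCR primers of the bait, per the series' design text, were:
primer 1: tctgtcctaaaggctctgaga
primer 2: gaacacagaagtatgtgtatgga
The promoters of Crip1 and Fos, a near and a far gene whose regions had lower contacts as described further on, hold 1 GATC each, shown in capitals. They come from RefSeq on GRCm38.p6 and run 5′ to 3′ on the plus strand, Crip1 at chr12:113151762-113152061 and Fos at chr12:85473640-85473939:
Crip1: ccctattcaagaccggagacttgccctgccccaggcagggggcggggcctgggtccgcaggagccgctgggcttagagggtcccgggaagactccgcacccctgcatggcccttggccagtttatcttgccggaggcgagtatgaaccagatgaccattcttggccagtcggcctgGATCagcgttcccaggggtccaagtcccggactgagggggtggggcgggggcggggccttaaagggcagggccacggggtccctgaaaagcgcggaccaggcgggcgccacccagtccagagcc
Fos: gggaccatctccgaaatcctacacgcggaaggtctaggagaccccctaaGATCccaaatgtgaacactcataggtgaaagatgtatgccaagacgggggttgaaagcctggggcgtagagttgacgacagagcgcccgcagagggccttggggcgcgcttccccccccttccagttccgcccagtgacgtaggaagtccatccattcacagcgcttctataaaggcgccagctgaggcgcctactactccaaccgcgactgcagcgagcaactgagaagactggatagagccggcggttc
The end after the GATC of Crip1 held 536, 747 and 525 reads at rest and 855, 267 and 346 reads after LPS + IL4, so the groups overlapped at that single end. The end before the GATC of Fos held 2, 2 and 1 reads at rest and 0, 0 and 2 after LPS + IL4. GATC, which reads alike on both strands, occurs in 47.1% of the 1277 chromosome 12 promoters of that table. All 1677 covered ends inside the RefSeq promoters of the genome lay directly beside a GATC.

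The 6 libraries held 3738095 to 6026550 reads. On chromosome 12, over 5 kb from the bait, the resting libraries held 1588390 to 2521119 reads at 7848 to 8953 ends, and the LPS + IL4 libraries 1914406 to 2800698 reads at 10758 to 11641 ends. The libraries thus overlapped in depth, while every LPS + IL4 library covered more ends of chromosome 12 than every resting one. Both libraries numbered 3 stand apart from the other 4. A set of 90 chromosome 12 ends, which no label names, held 4.17% and 5.66% of the chromosome 12 reads of resting and LPS + IL4 replicate 3 and at most 0.0103% in the others. These ends were chosen for at least 50 reads in at least 5 libraries among WT replicate 3 and mutant replicates 2 and 3, and fewer in all others. The gap is thus set by the choice, and mutant replicate 2 held 5.01% at rest and 5.94% after LPS + IL4. Calls that changed without replicate 3 or without these ends are given for several features.

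The contacts of Eμ changed in 11 of 15 distance bands along chromosome 12 on activation. They fell within 50 kb on the side of the constant genes, rose from 50 to 200 kb, and fell again from 200 kb to 1 Mb. Further out they rose from 3 to 10 Mb and fell beyond 30 Mb, and on the VH side the gain was largest, as a ratio, over the last stretch before the chromosome end. These statements are about shares of the chromosome 12 reads over 5 kb from the bait, which sum to 100% in each library, so a gain in 1 band lowers the others. Of 15 distance bands, 6 rose and 5 fell at an adjusted p under 0.05 (edgeR quasi-likelihood test over 12 libraries, Benjamini-Hochberg adjustment), which is 73.3% of the bands.

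**Figure D1:**
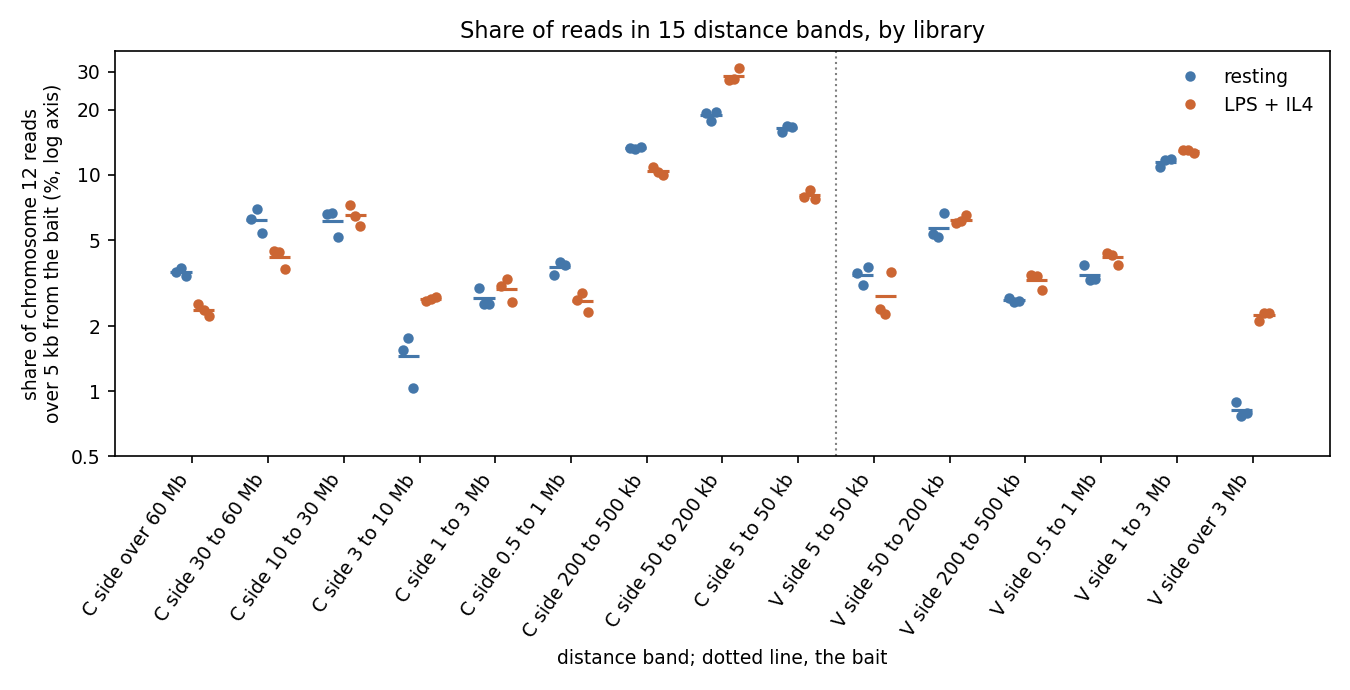
Share of the chromosome 12 reads over 5 kb from the bait (%, log axis) in 15 distance bands for each of the 6 WT libraries; points are libraries and bars are group means. The band over 3 Mb on the VH side went from 0.817% to 2.24%, and the band of 5 to 50 kb on the C side from 16.4% to 8.04%.

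On the side of the constant genes (C side), the band of 5 to 50 kb held 15.8%, 16.8% and 16.7% of the reads at rest and 7.90%, 8.51% and 7.71% after LPS + IL4. All 3 LPS + IL4 libraries lay below all 3 resting ones, and the log2 change was -1.03 ± 0.07 (SE, adjusted p = 3.57e-26 by edgeR). This band holds Ighm, Ighd and most of the stretch from Ighd toward Ighg3. The band of 50 to 200 kb, which holds Ighg3 to Igha and most of the 3'RR, held 19.3%, 17.9% and 19.5% at rest and 27.4%, 27.7% and 31.2% after LPS + IL4, with no overlap (log2 0.61 ± 0.09, adjusted p = 2.73e-09 by edgeR). With each covered end counted once, whatever its reads, its share of the covered ends changed by -0.27. Its mean number of covered ends went from 503 to 549.

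From 200 to 500 kb the share fell from 13.3% ± 0.123 to 10.4% ± 0.429 (SD, n = 3; log2 -0.36 ± 0.08), and from 0.5 to 1 Mb from 3.74% ± 0.276 to 2.60% ± 0.264 (log2 -0.52 ± 0.10). The groups did not overlap in either band. From 1 to 3 Mb they overlapped, and the log2 change of 0.15 ± 0.10 was not called (adjusted p = 0.157 by edgeR). It passed without resting replicate 1 (0.24, adjusted p = 0.0203) or without LPS + IL4 replicate 3 (0.24, adjusted p = 0.0140).

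The bands further out on the C side changed in opposite directions. From 3 to 10 Mb the libraries held 1.55%, 1.76% and 1.04% at rest and 2.61%, 2.67% and 2.74% after LPS + IL4, a log2 change of 0.88 ± 0.27 (adjusted p = 0.00276 by edgeR) with no overlap. From 10 to 30 Mb the groups overlapped (log2 0.09 ± 0.13, adjusted p = 0.514). From 30 to 60 Mb the share fell from 6.20% ± 0.783 to 4.18% ± 0.429 (log2 -0.57 ± 0.13), and beyond 60 Mb from 3.56% ± 0.139 to 2.38% ± 0.143 (log2 -0.58 ± 0.10), without overlap in either band.

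On the VH side the band over 3 Mb, which lies beyond the VH segments and runs to the chromosome end, had the largest log2 change among the 15, at a low share of the reads. It held 0.890%, 0.766% and 0.796% at rest and 2.11%, 2.30% and 2.31% after LPS + IL4. Every LPS + IL4 library held over 2 times the share of any resting library, and the log2 change was 1.45 ± 0.22 (adjusted p = 7.52e-09 by edgeR). The covered ends of the band rose as well, from 136 to 190 per library at rest to 514 to 555 after LPS + IL4.

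Nearer the bait on the VH side the changes were small. The bands of 200 to 500 kb (log2 0.31 ± 0.10), 0.5 to 1 Mb (0.26 ± 0.10) and 1 to 3 Mb (0.17 ± 0.08) were called as higher, and the bands of 5 to 50 kb (-0.33 ± 0.17) and 50 to 200 kb (0.12 ± 0.14) were not called. The call from 1 to 3 Mb (adjusted p = 0.0469) was lost when any single WT library was left out, with adjusted p from 0.0554 to 0.181. It was lost as well without the 90 ends that mark replicate 3 (log2 0.18, adjusted p = 0.205 by edgeR). TMM scaling (adjusted p = 0.185), DESeq2 (0.281) and a bait neighbourhood of 2 or 10 kb (0.0562 and 0.0541) also ended it. The call from 0.5 to 1 Mb was lost without either resting replicate 2 (0.0955) or 3 (0.0814), and without LPS + IL4 replicate 1 (0.0631) or 2 (0.110). The call from 200 to 500 kb was lost without LPS + IL4 replicate 1 (0.0631). From 0.5 to 1 Mb the groups overlapped. With each covered end counted once, none of these 3 bands was called. Their log2 changes by increasing distance were then 0.12, 0.08 and 0.03 (adjusted p = 0.323, 0.450 and 0.785 by edgeR). The band of 5 to 50 kb was called as lower without the 90 ends that mark replicate 3 (log2 -0.35, adjusted p = 2.55e-04), without resting replicate 2 (-0.40, adjusted p = 0.0134) and without LPS + IL4 replicate 3 (-0.56, adjusted p = 5.22e-07). LPS + IL4 replicate 3 held 3.57% in that band against 2.40% and 2.28% in replicates 1 and 2. Without LPS + IL4 replicate 2, whose protocol names aCD40, 9 bands were called, all among the 11, and the 11 called pieces of the locus given further on were the same.

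In blocks of 5 Mb counted from the bait the turn from gain to loss lay at 25 Mb on the C side. All 4 blocks from 5 to 25 Mb were higher in all 3 LPS + IL4 libraries than in all 3 resting ones, and all 3 blocks from 25 to 40 Mb were lower. The block of 15 to 20 Mb went from 0.202% ± 0.0788 to 0.470% ± 0.112 (SD, n = 3), and the block of 25 to 30 Mb from 3.35% ± 0.391 to 2.20% ± 0.207. Beyond 40 Mb the mean was lower in each of the 15 blocks, with no overlap in those of 80 to 85 Mb and 105 to 110 Mb. The blocks were not tested, and the bands carry the tests.

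**Figure D2:**
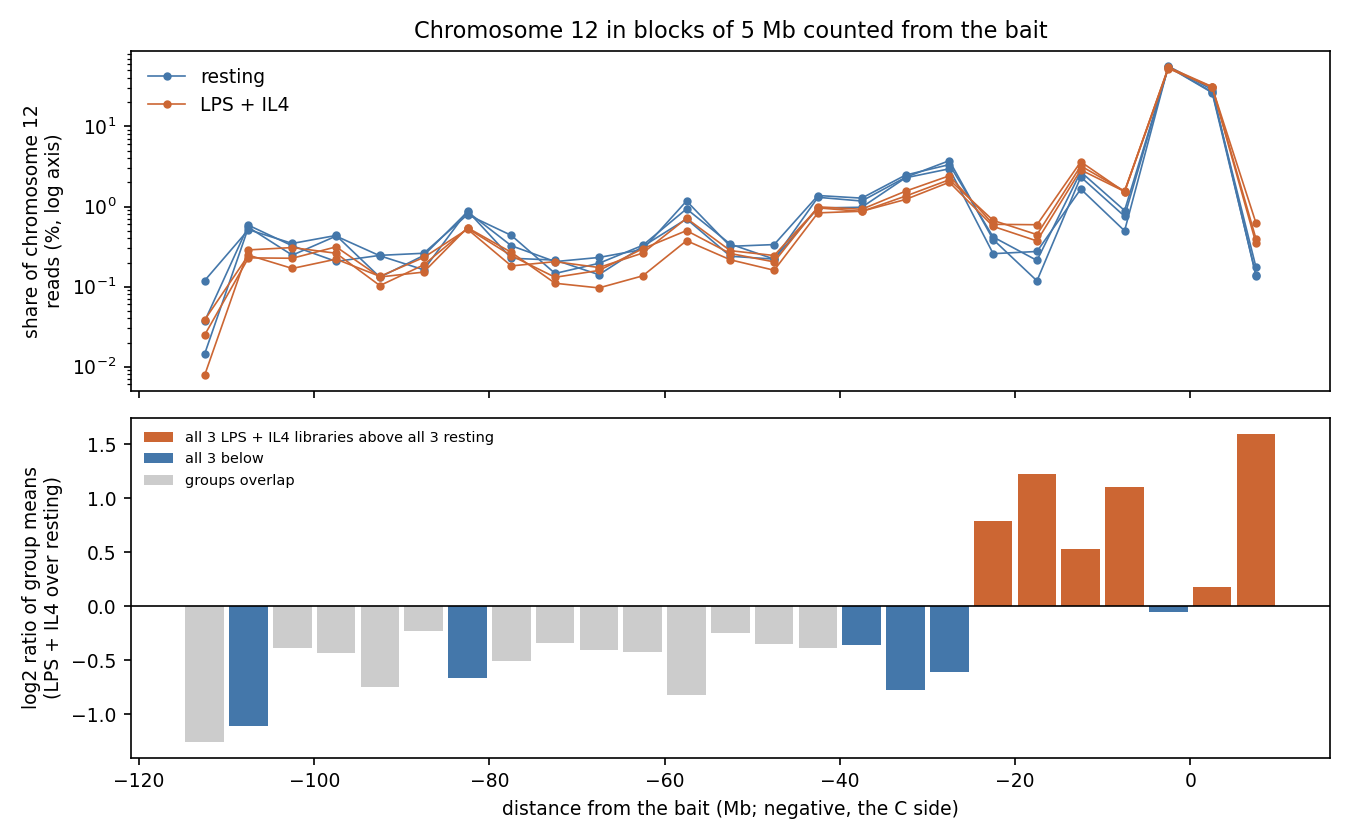
Chromosome 12 in blocks of 5 Mb by distance from the bait (Mb; negative, the C side). The upper panel gives the share of reads in each library (%, log axis), and the lower panel the log2 ratio of the group means, coloured by whether the 3 LPS + IL4 libraries lie above or below the 3 resting ones; the 4 C side blocks from 5 to 25 Mb are higher and the 3 from 25 to 40 Mb lower.

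The blocks differ in gene number. The block of 25 to 30 Mb, which was lower, holds 98 protein-coding genes, the most of any block. Of the 4 that were higher, those of 15 to 20 and 20 to 25 Mb hold 3 and 8, and those of 5 to 10 and 10 to 15 Mb hold 55 and 47. The share of reads in gene-rich DNA was measured over the 111 bins of 1 Mb that lie more than 3 Mb from the bait. The 28 bins with most genes (at least 8 each, 376 of 609 protein-coding genes) took 55.5%, 54.5% and 55.4% of these reads at rest and 49.9%, 49.0% and 49.6% after LPS + IL4. The groups did not overlap, with a mean difference of -5.65 percentage points (exact permutation test, two-sided, p = 0.1, the smallest that 3 against 3 allows). The share of chromosome 12 reads beyond 3 Mb as a whole differed by less than the spread between libraries (18.2% ± 2.12 at rest, 18.0% ± 1.09 after LPS + IL4, SD, n = 3; exact permutation p = 1). Its sign depended on the measure: counted as covered ends it was 48.9% ± 1.51 at rest and 51.5% ± 0.915 after LPS + IL4.

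Within the heavy chain locus, 21 pieces were measured, of which 7 rose and 4 fell (52.4% called). The 3'RR is counted both whole and in 4 segments, so 4 of the 7 higher calls cover the same DNA. Ighm, the piece next to the bait neighbourhood on the C side, held 1.88%, 2.40% and 2.16% at rest and 1.85%, 2.26% and 1.83% after LPS + IL4, which overlap (log2 -0.12 ± 0.12, adjusted p = 0.448 by edgeR). With reads per end capped at the 99th percentile it was called as lower (-0.55, adjusted p = 0.00756). The next 2 pieces fell. Ighd with the DNA up to Ighm held 7.76%, 7.51% and 7.04% of the reads at rest and 3.09%, 3.37% and 3.08% after LPS + IL4, and the interval from Ighd to Ighg3 went from 7.31% ± 0.682 to 3.26% ± 0.129 (SD, n = 3). The groups did not overlap in either piece, with log2 changes of -1.23 ± 0.08 and -1.17 ± 0.09. As a share of the covered ends, Ighd changed by -0.37 and was not called (adjusted p = 0.149 by edgeR).

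Of the 6 switch acceptors downstream, each with up to 10 kb upstream of the gene, Ighg1 and Ighe rose, as did contacts with the 3'RR. Ighg1 held 1.13%, 0.937% and 0.902% at rest and 2.61%, 2.34% and 2.55% after LPS + IL4. Ighe held 0.689%, 0.645% and 0.792% at rest and 1.15%, 1.43% and 1.26% after LPS + IL4, again with no overlap. For Ighg3, Ighg2b, Ighg2c and Igha the groups overlapped and no change was called (log2 -0.27, 0.25, 0.13 and -0.08). The call of Ighg3 turned to lower in 7 alternatives, among them leaving out LPS + IL4 replicate 1 (-0.37, adjusted p = 0.0187), TMM scaling (-0.42, adjusted p = 0.00345) and DESeq2 (-0.41, adjusted p = 0.00895).

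The 3'RR was taken as the 35 kb beyond Igha and cut in 4 segments of 8750 bases counted from Igha, which are not the bounds of its single enhancers. Segment 2 held 1.66%, 1.32% and 1.45% at rest and 3.05%, 2.96% and 3.06% after LPS + IL4 (log2 1.03 ± 0.11, adjusted p = 5.25e-08 by edgeR). Segment 3 rose by 0.87 ± 0.13 and segment 1 by 0.85 ± 0.26, where in segment 1 LPS + IL4 replicate 3 (9.54%) stood above replicates 1 and 2 (6.39% and 6.64%). The call of segment 1 was lost without LPS + IL4 replicate 3 (adjusted p = 0.0852), resting replicate 1 (0.0639) or resting replicate 2 (0.0855). Segment 4 held 5.67% ± 0.378 and 6.06% ± 0.207 (SD, n = 3; log2 0.10 ± 0.09, adjusted p = 0.439). With reads per end capped at the 99th percentile of each library, segments 1 to 3 changed by 0.04, 0.08 and 0.26 and were not called, while Ighg1 (1.22) and Ighe (0.75) were still called as higher. As a share of all covered chromosome 12 ends, all 5 of these pieces had estimates below 0, from -0.36 to -0.14. Their own mean number of covered ends was higher after LPS + IL4. It went from 64.7 to 77.3 in Ighg1 and from 51 to 60.3 in Ighe. In 3'RR segments 1 to 3 it went from 53 to 56, 25.7 to 26.3 and 23.3 to 26.3.

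**Figure D3:**
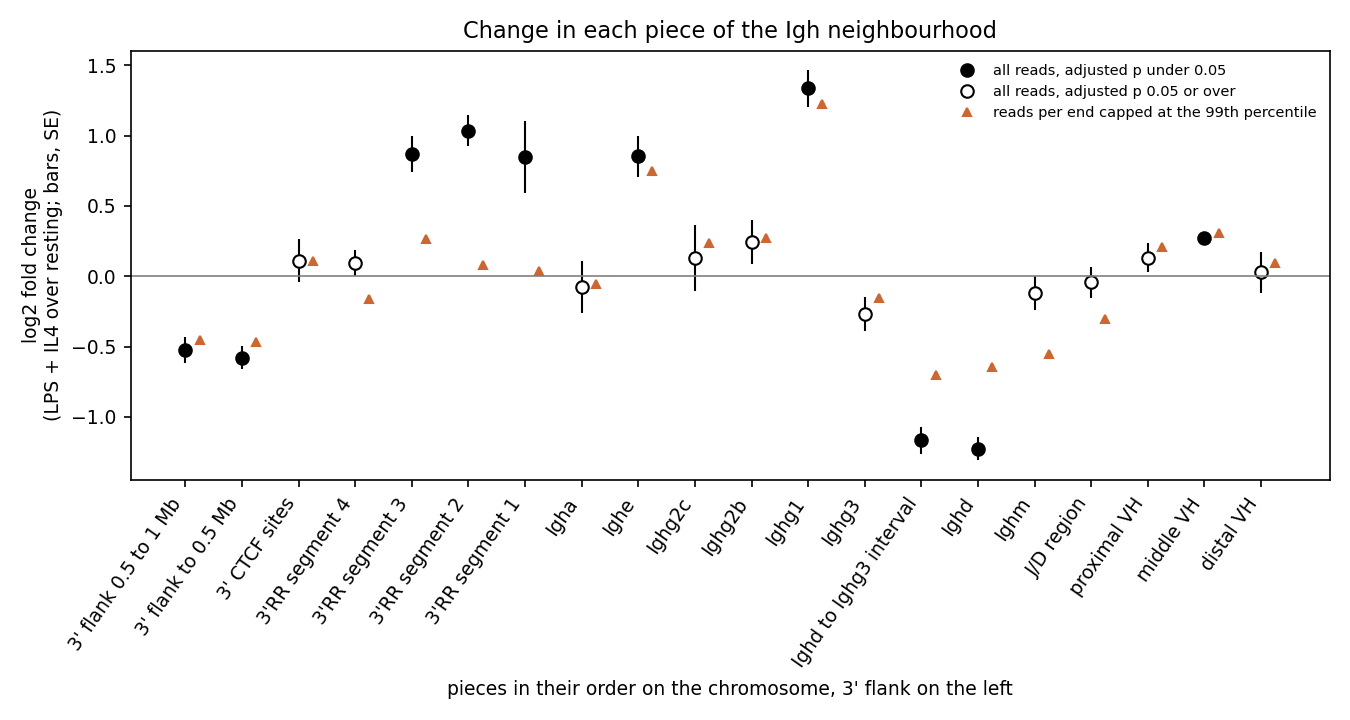
Log2 fold change (LPS + IL4 over resting, bars SE) of 20 pieces of the Igh neighbourhood in chromosomal order; filled points passed an adjusted p of 0.05 in the edgeR test and triangles show the change with reads per end capped at the 99th percentile. Ighg1 is highest at 1.33 and Ighd lowest at -1.23, and the 3 risen segments of the 3'RR drop to between 0.04 and 0.26 with the cap.

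Among the 3 stretches of VH segments, the middle one, 0.5 to 1.5 Mb from the bait, was called. It held 8.34%, 8.07% and 8.87% at rest and 10.6%, 10.2% and 9.71% after LPS + IL4 (log2 0.27 ± 0.05), without overlap. TMM scaling (0.11, adjusted p = 0.184), DESeq2 (0.13, adjusted p = 0.206) and covered ends (0.02, adjusted p = 0.812) each ended this call. TMM and DESeq2 shifted the median change of the pieces by -0.15 and -0.14. The proximal (0.13) and distal (0.03) stretches were not called, nor was the J/D region (-0.04). The J/D region was called as lower with capped reads (-0.30, adjusted p = 0.0370) and with covered ends (-0.45, adjusted p = 0.0112), and the proximal stretch as higher with capped reads (0.21, adjusted p = 0.0370).

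Single fragment ends show where in the pieces the reads moved. Within 500 kb of the bait 1405 ends passed the filter of a mean of 50 reads, and 14 were called as higher and 24 as lower (2.7% called). The lower ends lay mostly in Ighd (14 of its 33 tested ends) and in the interval to Ighg3 (8 of 83), and none of the ends in these 2 pieces was called as higher. Of the higher ends, 5 lay in segment 2 of the 3'RR (of 24 tested), 3 in segment 1 (of 55), 2 in segment 4 (of 19, with 1 lower), 2 in Ighg1 (of 65), 1 in Ighe and 1 in the 3' flank. The median log2 change of the tested ends was -1.31 in Ighd, -1.16 in the interval, 1.51 in Ighg1 and 1.15 in 3'RR segment 2, beside -0.05 over all ends.

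The Ighg1 end at chr12:113340055-113340078, 9.53 kb upstream of the gene, held 1418, 561 and 429 reads at rest and 3762, 3128 and 4596 after LPS + IL4 (log2 2.21 ± 0.39, adjusted p = 0.0162 by edgeR). An end inside the gene at chr12:113327919-113327942 rose by 1.75 ± 0.38. In both, every LPS + IL4 library lay above every resting one. An end 8.44 kb upstream of Ighe at chr12:113281684-113281707 had 0 reads in each resting library and 346, 159 and 894 after LPS + IL4. In the 3' flank the end at chr12:113049596-113049619 went from 0 reads in each resting library to 90, 36 and 64. Both ends passed the filter on low counts only through activated libraries, so their calls were favoured by it, and without the filter neither was called (adjusted p = 0.0802 by edgeR for each). In 3'RR segment 2 the end at chr12:113244516-113244539 held 2704, 2704 and 1924 reads at rest and 9012, 6762 and 6196 after LPS + IL4 (log2 1.36 ± 0.21, adjusted p = 0.0126 by edgeR).

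Among the lower ends, chr12:113402287-113402310 in the interval held 5196, 6602 and 7518 reads at rest and 2388, 1177 and 1862 after LPS + IL4 (log2 -2.13 ± 0.32, adjusted p = 0.0126 by edgeR). In the Ighd gene the end at chr12:113408541-113408564 fell by 1.78 on the log2 scale and in the Ighm gene that at chr12:113419611-113419634 fell by 2.80. Without LPS + IL4 replicate 3, 12 ends were called, all 12 of them among the 38, and 14 were called with the 6 WT libraries alone. The ends at 113244516, 113402287 and 113408541 kept their calls without any single WT library (adjusted p at most 0.0456). With the 6 WT libraries alone those at 113402287 (0.0775) and 113408541 (0.0524) were not called, and with the replicate number as a block none of the 3 was (0.185, 0.270 and 0.271). The Ighe end lost its call without any of them (0.0638 to 0.0758), and for the other ends given the adjusted p reached 0.0590 to 0.164.

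Beyond the 3'RR lies a gene-rich flank, where contacts fell from 200 kb to 1 Mb. Contacts of genes were counted over each RefSeq gene with 25 kb on either side, so neighbours share ends. Of 649 gene regions of chromosome 12, 7 rose and 16 fell (3.54% called), with a median log2 change of -0.19 over all. In the flank from 200 to 500 kb 7 of 12 gene regions fell and none rose (median -0.61), and from 0.5 to 1 Mb 2 of 15 fell (median -0.60).

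The 5 nearest of these overlap each other around Crip1 and Crip2, genes of small LIM-domain proteins, 261 to 289 kb from the bait. Crip2 held 35357, 32432 and 29278 RPM at rest and 18238, 15145 and 17633 RPM after LPS + IL4 (RPM, reads scaled to 1000000 chromosome 12 reads over 5 kb from the bait). All 3 LPS + IL4 libraries lay below all 3 resting ones, and the log2 change was -0.93 ± 0.11 (adjusted p = 9.71e-06 by edgeR). Mta1, a subunit of the NuRD chromatin remodelling complex, changed by -0.79, Crip1 by -0.87 and Tedc1 by -0.78.

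Further into the flank, Brf1 (a subunit of the initiation factor of RNA polymerase III) changed by -0.66 ± 0.12, Btbd6 by -0.56, the lipid receptor gene Gpr132 by -0.66 and Cep170b by -0.74. Akt1, a kinase gene downstream of PI3K, lay further out, 751 kb away, and was not called (-0.49 ± 0.20, adjusted p = 0.191 by edgeR). Tmem121, 237 kb away, nearer the bait than Crip1, went from 23718 ± 1137 to 20482 ± 1110 RPM (SD, n = 3) and was not called either (-0.21 ± 0.11, adjusted p = 0.293).

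**Figure D4:**
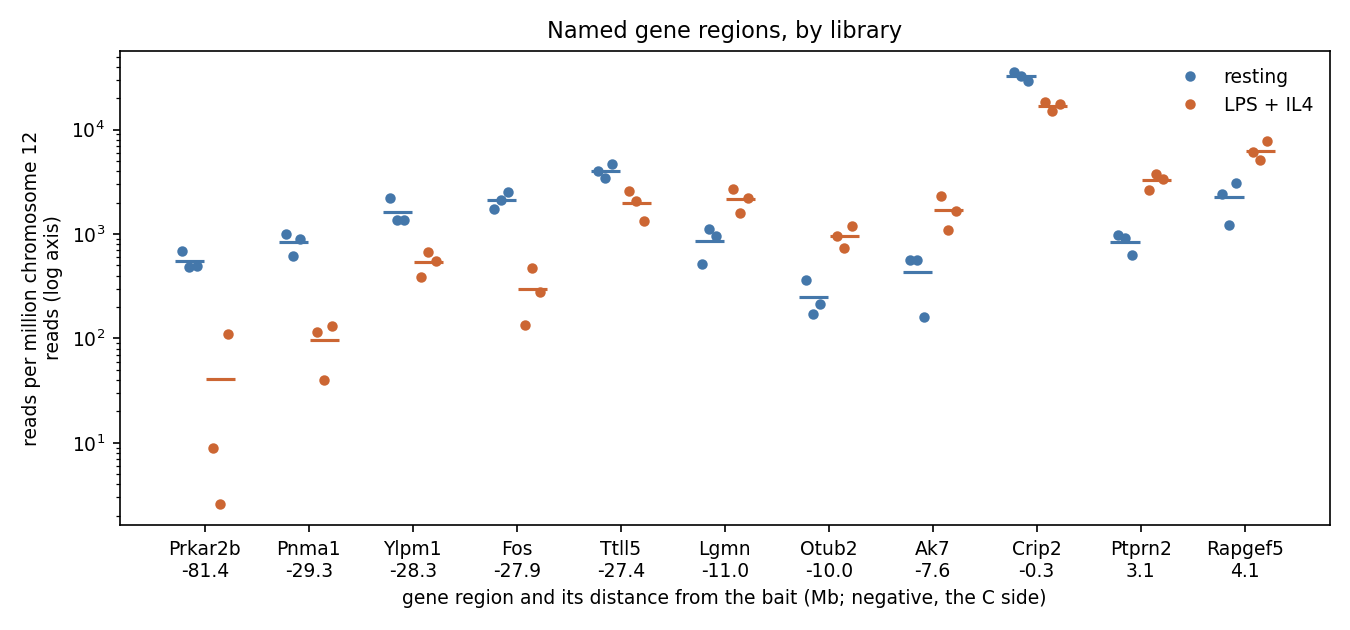
RPM (log axis) in 11 named gene regions for each WT library, ordered by distance from the bait (Mb; negative, the C side); points are libraries and bars group means. No region shows overlap between groups, with Fos going from 2122 to 296 and Ptprn2 from 841 to 3260.

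Far gene regions that lost contacts lay 27 to 30 Mb away around Fos. Fos encodes an AP-1 transcription factor subunit that is induced within minutes of stimulation. The Fos region held 1736, 2118 and 2511 RPM at rest and 134, 476 and 278 after LPS + IL4. The highest LPS + IL4 library lay far below the lowest resting one, and the log2 change was -2.84 ± 0.49 (adjusted p = 6.05e-04 by edgeR). The call held without any single WT library (adjusted p at most 0.00630).

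Around it Ylpm1 (-1.61 ± 0.44), Mideas (-1.24 ± 0.27), Pnma1 (-3.13 ± 0.71) and Ttll5 (-1.02 ± 0.29), a tubulin polyglutamylase gene, fell too. The calls of Ylpm1 and Ttll5 were each lost without 5 of the 6 single WT libraries (adjusted p up to 0.174 and 0.241), and that of Pnma1 without LPS + IL4 replicate 2 (0.0538). The neighbours of Fos on the side toward the bait, Jdp2 (0.63 ± 0.69) and Batf (0.75 ± 0.67), genes of other AP-1 family factors, were not called and had estimates above 0. The difference between Fos and these neighbours was not tested. Pnma1 and Mideas share ends. With Fos, these were the 5 lower calls among 154 gene regions from 10 to 30 Mb on the C side. In that band 3 were called as higher, and 3.54% were called over all gene regions. Other regions between 27 and 30 Mb were not called. Their estimates lay on both sides of 0, as at Lin52 (-2.16 ± 0.65) and Syndig1l (1.62 ± 1.12).

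Elsewhere on the C side the calls of lower contacts were Prkar2b (-3.77 ± 1.06) 81.4 Mb away and Rad51b (-0.85 ± 0.23) 33.6 Mb away. Prkar2b, a regulatory subunit gene of protein kinase A, held 1727, 823 and 779 reads at rest and 25, 5 and 212 after LPS + IL4. Without single WT libraries its adjusted p reached 0.174, and that of Rad51b 0.216. The call of Prkar2b was also lost without the 90 ends that mark replicate 3 (adjusted p = 0.0551 by edgeR).

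The gene regions with higher contacts given here lay 7.64 Mb and more away on the C side or 2.98 Mb and more away on the VH side. Ak7, an adenylate kinase gene 7.64 Mb away, held 565, 568 and 161 RPM at rest and 2320, 1100 and 1657 after LPS + IL4 (log2 1.97 ± 0.48, adjusted p = 0.0196 by edgeR). Otub2, a deubiquitinase gene, rose by 1.94 ± 0.51 and Lgmn, the gene of the lysosomal protease legumain, by 1.33 ± 0.34. The groups did not overlap in these 3, but without single WT libraries their adjusted p reached 0.135 to 0.155. From 3 to 10 Mb on the C side 55 of 66 gene regions had estimates above 0 (median 1.30), beside 292 of all 649. Among these 66 only Ak7 was called, beside 3.54% called over all gene regions, and neighbouring regions share ends.

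All 10 gene regions tested over 3 Mb on the VH side had estimates above 0 (median 1.56), beside 292 of all 649, and Ptprn2 and Rapgef5 were called, beside 3.54% over all. Ptprn2, a receptor-type phosphatase gene of secretory vesicles, held 972, 915 and 636 RPM at rest and 2625, 3798 and 3357 after LPS + IL4 (log2 1.95 ± 0.34, adjusted p = 6.05e-04 by edgeR). Rapgef5, the gene of an activator of Rap GTPases, held 2418, 1227 and 3104 and then 6043, 5084 and 7707 (1.48 ± 0.31, adjusted p = 0.00520). The groups were apart in both, and both calls held without any single WT library (adjusted p at most 0.00390 and 0.0437). Ncapg2, a condensin II subunit gene 2.98 Mb away at the edge of the VH side, rose by 1.70 ± 0.43.

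A list of 34 chromosome 12 genes of B-cell activation, signalling, transcription and replication was read as counts. It was chosen with earlier results of these data known, so its counts beside all gene regions are a description only. All 34 were tested, 4 fell (Mta1, Crip1, Fos and Rad51b) and none rose, beside 3.54% called over all gene regions, and 18 had estimates above 0, beside 292 of all 649. Mta1 and Crip1 share ends. The list's median was 0.48, beside -0.19 over all gene regions. The SE of the log2 change reached 3.12 within the list, so at some of these genes even large changes were not detectable.

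In windows of 100 kb along the chromosome 2 of 1125 rose and 4 fell (0.533% called). The windows 3.95 Mb away on the VH side (log2 3.41 ± 0.70), where no protein-coding gene lies, and over most of the 3'RR and Igha to Ighg2b (0.71 ± 0.09) rose. Of the pieces in the latter, 3'RR segments 1 to 3 and Ighe were called as higher, while Igha, Ighg2c and Ighg2b were not called. The windows over Fos (-2.24 ± 0.35), over Ptgr2 and Zfp410 29.2 Mb away (-1.83 ± 0.36), over Brf1 (-0.62 ± 0.12) and over Ighm to Ighg1 (-0.61 ± 0.05) fell. The last of these pools Ighd and the interval to Ighg3, which fell as pieces, with Ighg1, which rose. It also holds Ighm and Ighg3, which were not called. The window 3.95 Mb away held 134, 209 and 96 reads at rest and 2613, 1227 and 1821 after LPS + IL4, and its call was lost without any single WT library (adjusted p 0.0552 to 0.210). The window over most of the 3'RR and Igha to Ighg2b was not called with TMM (0.57, adjusted p = 0.154) or with capped reads (0.20, adjusted p = 0.362). The windows over Ptgr2 and over Brf1 each lost their calls without 5 of the 6 (up to 0.185 and 0.196). In the fit with only reads over 3 Mb from the bait as library size, 1 far window was called, against 3 with the usual library size.

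Contacts with other chromosomes became a smaller part of the library. They took 55.3%, 56.0% and 54.9% of all reads over 5 kb from the bait at rest and 47.7%, 46.7% and 45.1% after LPS + IL4. Every LPS + IL4 library lay below every resting one, with a mean difference of -8.88 percentage points (exact permutation test, two-sided, p = 0.1, the smallest possible). With each covered end counted once the share went from 84.9% ± 0.144 to 82.2% ± 0.674 (SD, n = 3), a difference of -2.70 points. The share of reads outside chromosome 12 also depends on how many ligations are random, which was not tested.

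Of 19 chromosomes in trans, 6 took a larger and 4 a smaller part of the trans reads (52.6% called). Chromosome 19 held 4.27%, 4.39% and 4.47% at rest and 2.53%, 2.89% and 2.98% after LPS + IL4 (log2 -0.64 ± 0.08, adjusted p = 9.31e-12 by edgeR). Chromosomes 17 (-0.38), 15 (-0.32) and 11 (-0.29) fell as well, without overlap. Chromosomes 3 (0.21), 2 (0.20), 6, 10, 13 and 1 (0.11) rose. The calls of chromosomes 1, 6 and 13 were lost without resting replicate 3 (adjusted p 0.0694, 0.0591 and 0.0513) and with TMM scaling, those of 1 and 6 also without LPS + IL4 replicate 1 (0.108 and 0.0767), and that of 1 without LPS + IL4 replicate 3 (0.108). LPS + IL4 replicate 2, whose protocol names aCD40, had 7.06% on chromosome X against 5.30% in both others. Resting replicate 2 was also the highest of its group there, at 5.63% against 4.65% and 4.99%.

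Chromosomes 11, 19 and 17 rank 2, 3 and 4 by protein-coding genes per Mb. Chromosome 7, which ranks 1, was not called (-0.07 ± 0.05, adjusted p = 0.224), and chromosome 15, which fell, ranks 12. Across the 19 chromosomes, which share libraries and sum to 100%, gene density and log2 change correlated at r = -0.63 (Pearson) and rho = -0.62 (Spearman), given as a description. The 616 of 2463 trans bins of 1 Mb with most genes (at least 11 each, with ties at 11 cut by their order in the genome) took 42.6%, 41.6% and 41.1% of the trans reads at rest and 32.3%, 32.2% and 31.3% after LPS + IL4. The groups were apart by -9.86 percentage points (exact permutation p = 0.1, the smallest possible). This measure was added after the data were seen, and it moved in the same direction as the gene-rich bins of chromosome 12. With each covered end counted once the difference was -4.02 points.

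**Figure D5:**
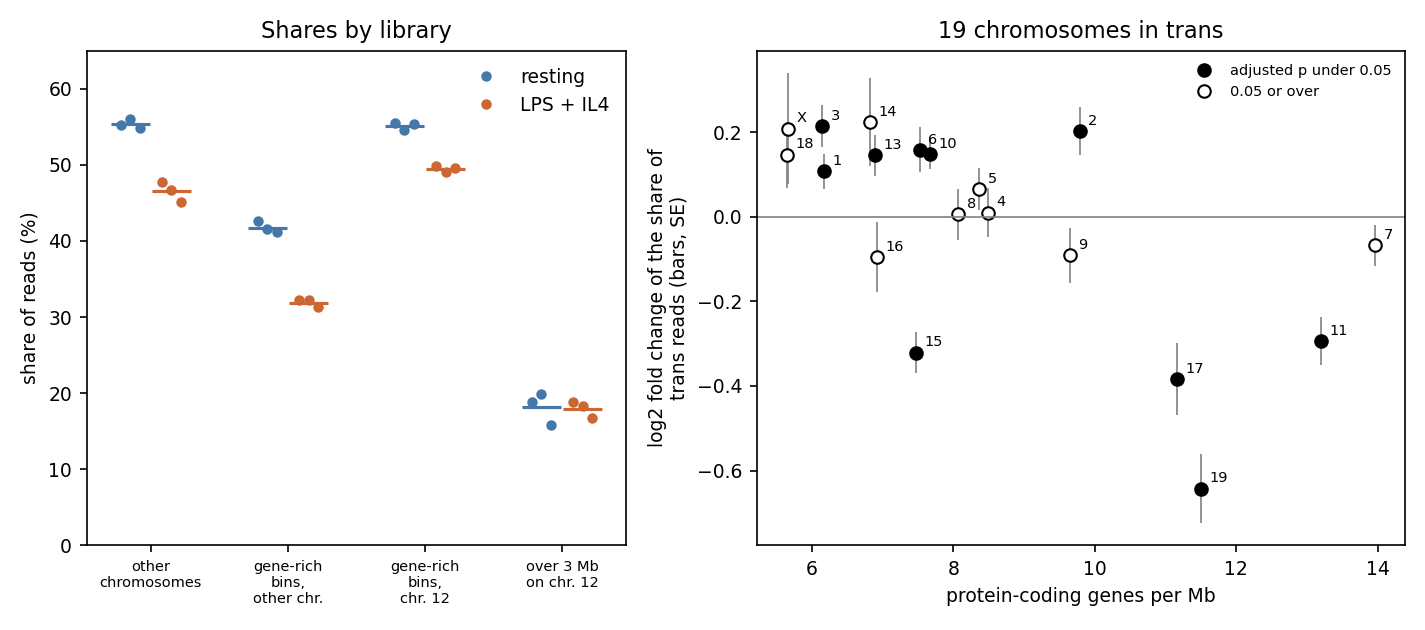
Left, 4 shares of reads (%) in each WT library, with bars for group means: reads on other chromosomes, the gene-rich trans bins, the gene-rich chromosome 12 bins over 3 Mb away, and chromosome 12 reads over 3 Mb away. Right, log2 change of each chromosome's part of the trans reads (bars SE) against its protein-coding genes per Mb; chromosome 19 is lowest at -0.64.

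Single trans bins were few. Of 2463 bins 2 rose and 7 fell (0.365% called), and 6 of the 7 that fell and 1 of the 2 that rose were among the gene-rich ones. The bin from 19 to 20 Mb of chromosome 16, which holds the lambda light chain constant genes Iglc1, Iglc2 and Iglc3, held 7205, 8379 and 4349 reads at rest and 1191, 1190 and 1104 after LPS + IL4 (log2 -2.17 ± 0.37, adjusted p = 0.00704 by edgeR). It has 11 genes and fell to the other side of the tie. Its call was lost without resting replicate 2 (0.0864) or LPS + IL4 replicate 1 (0.0619). The bin of chromosome 6 with Igkc, the kappa constant gene, looked up afterwards for comparison, overlapped between groups (-0.26 ± 0.43, adjusted p = 0.845).

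The 2 adjacent bins of chromosome 17 from 34000001 to 36000000 hold the major histocompatibility complex, with H2-Aa and H2-Ab1 in the first and Tnf, Lta and Ltb in the second. They fell by 1.85 and 1.98 on the log2 scale, from 9272, 5511 and 5890 reads to 1712, 2033 and 779 in the first. The bin of chromosome 19 with Ms4a1, the gene of the B-cell antigen CD20, changed by -1.99 ± 0.43 and that with Rela, an NF-κB subunit gene, by -2.83 ± 0.49. Bins of chromosome 4 (with Arid1a, -2.24) and chromosome 15 (with Rac2 and Il2rb, -1.92) fell as well. The Ms4a1 bin lost its call without any single WT library (adjusted p 0.0775 to 0.194). The Rela bin (0.0625) and the Arid1a bin (0.0698) lost theirs without resting replicate 1, and the Tnf bin without resting replicate 1 (0.0573) or 3 (0.0613). The Rac2 bin lost its call without resting replicate 1 (0.125) or 2 (0.112) and without LPS + IL4 replicate 1 (0.111) or 2 (0.0863). Without resting replicate 1 only 1 trans bin was called, that of chromosome 16 with Iglc1. The H2-Aa bin thus lost its call there too, and its values under the alternatives are not given here.

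The 2 bins that rose lie on chromosomes 16 (88000001 to 89000000) and 14 (118000001 to 119000000) and held at most 167 reads in a resting library and 255 to 1225 after LPS + IL4. The chromosome 14 bin lost its call without any single WT library (adjusted p 0.0627 to 0.145), and the chromosome 16 bin without each of them but LPS + IL4 replicate 2 (up to 0.136). Without resting replicate 1, 2 or 3 in turn, 1, 3 and 4 bins were called, and without LPS + IL4 replicate 1 there were 5. In the gene-rich bins the groups were apart downward in 120 and upward in 40 of 616, and in the others downward in 58 and upward in 210 of 1847. Over all 2463 bins they were apart downward in 178 and upward in 250. Of the 20 arrangements of 3 against 3 libraries, 1 sets the groups apart downward and 1 upward. These counts were not tested.

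In the cells labelled Med1 Mutant the same conditions gave these values. The trans share was 55.3% ± 1.26 at rest and 47.7% ± 1.05 after LPS + IL4 (SD, n = 3), the C side band of 5 to 50 kb 15.3% ± 0.751 and 7.70% ± 0.464, and the band at the chromosome end 0.890% ± 0.166 and 1.72% ± 0.424. The difference between the WT and the mutant change was called in none of the 15 bands, 21 pieces, 649 gene regions, 1125 windows, 1405 ends, 19 chromosomes and 2463 trans bins (edgeR, lowest adjusted p 0.310), with 0, 3, 38, 85, 73, 1 and 135 at an unadjusted p under 0.05. For the chromosome end the log2 difference was 0.51 ± 0.31 (adjusted p = 0.548), and for Ighe 0.52 ± 0.20 (adjusted p = 0.325). A difference between genotypes was thus not shown, and these tests do not show that the changes are equal.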

How the data were processed

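The deposited files hold raw counts of reads per fragment end, per the file headers and the whole numbers in them. The submitters' processing notes name Bowtie and mm10; the version, settings and filters are not given in the sources used here. Ends without a read are not listed, and no molecular identifiers were used, so reads are not counts of separate molecules. The SE, SD and edgeR p-values rest on the spread between libraries. Chromosome 12 ends over 5 kb from the bait gave the shares and the library sizes; trans fits used reads on the other autosomes and X. Counts were summed per feature (windows, gene regions and bins with a mean of at least 10 reads, ends of 50) and fitted with edgeR 4.0.16 in R 4.3.3 (quasi-likelihood, robust, 4 group means over 12 libraries, no TMM), with Benjamini-Hochberg adjustment per table and a threshold of 0.05; the fit was tested on simulated data. Named were all bands, pieces and chromosomes and, per table and direction, up to 6 called features whose groups did not overlap, by size of change. One gene region is not reported here. Other genes (among them the flank genes, Jdp2, Batf, Rad51b, Mideas, Ncapg2 and the H2-Aa bin) were named after their values were seen. Members and lists were chosen with earlier results of these data known. Single shares were compared by exact permutation. Gene positions came from RefSeq (GRCm38.p6). Alternatives were TMM, DESeq2 1.42.0, the WT libraries alone, a replicate block, each WT library left out, covered ends, capped reads, other filters, windows, flanks and bait neighbourhoods, and leaving out the ends that mark replicate 3.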

Additional observations from a re-analysis of the deposited data

How the results depend on the processing

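Pairing by replicate number was not borne out for every pair: over the 21 pieces the deviations of same-numbered WT libraries correlated at 0.07, -0.05 and 0.43. Both WT libraries numbered 3 share the 90 ends that mark them, but those ends were chosen to do so and also set apart mutant replicates 2 and 3. With the replicate number as a block, 12 bands, 12 pieces, 5 windows, 0 ends, 22 gene regions, 11 chromosomes and 5 trans bins were called, and the exact sign-flip permutation test of the trans share gave p = 0.25, the smallest it allows. DESeq2 called 64 windows, 152 ends, 56 gene regions and 97 trans bins, and TMM 14 trans bins. With covered ends 4 pieces, 66 windows, 128 gene regions and 64 trans bins were called. As shares of all covered chromosome 12 ends these turned sign: the 50 to 200 kb bands of the C side (-0.27) and V side (-0.29), Ighg1 (-0.14), Ighe (-0.16), the 3'RR (-0.32), its segments 1 to 3 (-0.32, -0.36 and -0.23) and the window over most of the 3'RR and Igha to Ighg2b (-0.28). Other counts that moved by over 1.5 times were 14 ends and 14 gene regions with the WT libraries alone, 22 ends without the filter, 15 and 52 gene regions with flanks of 10 and 50 kb, 1 window with library size from far reads and 4 trans bins with capped reads. The difference in the share beyond 3 Mb (-0.19 points) became 2.53 with covered ends, 0.91 with capped reads and 1.55 beyond 1 Mb. With each WT library left out in turn it ranged from -1.38 to 0.65 points, and the calls from 3 to 6 windows, 12 to 27 ends, 14 to 26 gene regions and 1 to 8 trans bins. Of the 96 named features, 33 kept the outcome of their test under all alternatives. These include features that were never called, such as Igha, Ighg2b, Ighg2c and chromosomes 4, 5 and 8. Among those called in the same direction throughout were the Fos, Ptprn2, Rapgef5, Crip1 and Crip2 regions and the C side bands beyond 30 Mb. TMM moved the median change of the ends by 0.16 and of the trans bins by -0.16. Depth limits what single features with few reads can show.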
